A study of Mus musculus with 47 samples.

Results

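Luminal cells line the ducts and alveoli of the mammary gland and face its lumen, and in lactation they are the cells that make milk. Some of them carry the receptors for oestrogen, progesterone and prolactin, and pass the hormonal signal on to their neighbours through secreted factors such as RANKL and amphiregulin. In the first days of pregnancy, progesterone and prolactin start a wave of cell division from which side branches and alveolar buds grow, well before milk is secreted. The comparison described here asks how the RNA content of sorted luminal cells at that early stage differed from that of the same population in virgin mice.

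The comparison took all luminal libraries of 2 time points, 6 of the 46 libraries with values (47 samples were described). The 3 W10 libraries (replicates 3, 5 and 6) came from 10-week-old virgin FVB/N females. The 3 P3.5 libraries (replicates 2, 4 and 6) came from FVB/N females at day 3.5 of pregnancy, dated by vaginal plug and checked for embryos in the uterus. All mice were otherwise untreated, and each replicate was a separate sort of the pooled glands of 4 mice, so that a value is the average of a pool and not of an animal. The luminal gate took lineage-negative CD24+ CD29lo cells, and the basal (CD29hi) cells of the same sort gave a library of their own. As neighbours, the luminal libraries of 4-month-old nulliparous mice (M4, n = 3), those of day 14.5 of pregnancy (P14.5, n = 3) and the basal libraries of W10 and P3.5 (n = 3 each) were used.

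W10 and P3.5 libraries shared neither sequencing lane nor amplification batch. W10 was sequenced on lane 2 and amplified in batch 4, P3.5 on lane 5 and in batch 6. Each batch thus held only 1 of the groups, no within-batch value could be formed, and pregnancy, the age of the mice, the lane and the amplification batch cannot be told apart in this comparison. The p-values measure the spread between sorts of a time point, pooled over all conditions. At W10 and P3.5 these sorts share 1 amplification batch each, so the difference between those batches is not part of that spread.

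The luminal libraries held 8378344, 11438112 and 6551784 reads on genes at W10 (replicates 3, 5 and 6) and 8551434, 11148617 and 10840173 at P3.5 (replicates 2, 4 and 6). In these libraries 3 reads, taken as the limit of detection, corresponded to between 0.191 and 0.373 CPM (reads of a gene per normalized library size, the unit of the deposited values). The P3.5 libraries were alike, with Pearson correlations of log2(CPM + 1) across genes of 0.966 to 0.982. At W10, replicates 5 and 6 correlated at 0.977, whereas replicate 3 stood apart from both, at 0.926 and 0.923. When it was left out, 19 of the 57 called genes chosen by the naming rule for this comparison lost their call. Several results are also given without it. More of the 57 lost their call without W10 replicate 5 or 6 (23 and 27) or P3.5 replicate 2 or 6 (44 and 37), and fewer without P3.5 replicate 4 (10). No libraries were identical.

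Markers of luminal cells were high and those of basal cells low in these libraries. *Krt8*, a keratin of luminal cells, stood at 623, 809 and 559 CPM in the W10 luminal libraries and at 655, 785 and 667 CPM at P3.5, against means of 120 and 101 CPM in the basal libraries of the same time points. *Acta2*, the smooth muscle actin of basal cells, averaged 62.2 CPM in W10 and 23.2 CPM in P3.5 luminal cells, against 10174 and 5500 CPM in basal cells. None of the 12 listed luminal keratin and adhesion genes was called between W10 and P3.5, *Cd24a* and *Epcam* among them (log2 fold changes of -0.15 and -0.05).

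Between W10 and P3.5, luminal cells gained transcripts of cell division, DNA synthesis and the mitochondrial respiratory chain, and lost a smaller and more varied set of genes. A gene was called when it changed at least 2-fold on the log2(CPM + 1) scale, on which the changes of scarce transcripts are understated, at a false discovery rate under 0.01 in limma's moderated test with Benjamini-Hochberg adjustment over 17078 genes. By this rule 239 genes (1.4% of all genes) were higher and 72 (0.422%) were lower at P3.5. The median log2 fold change of all genes was -0.06. All but 1 of the 311 called genes had P3.5 and W10 libraries that did not overlap, a pattern that 14.4% of all genes showed with P3.5 above W10 and 15.6% with P3.5 below. Of the called genes, 297 were protein-coding. Among those called higher, 49 (20.5%) stood on the lists of mitosis or DNA replication genes, which together hold 111 genes of the table. In bulk libraries a change in the number of cells of a type and a change in the RNA per cell cannot be told apart.

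**Figure D1:**
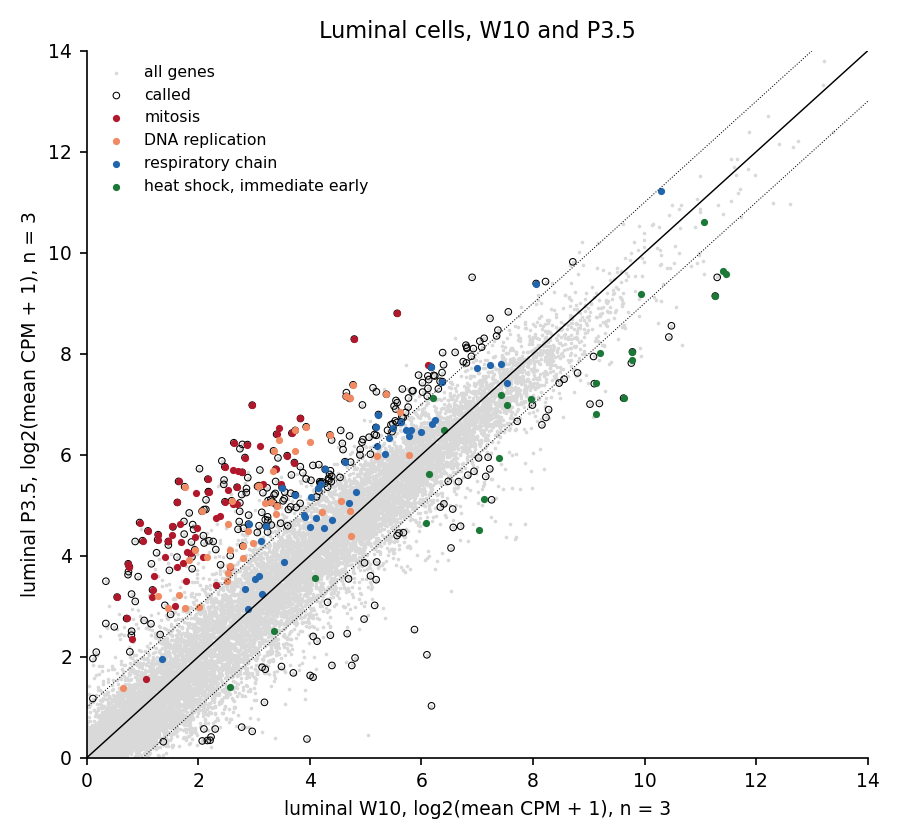
Each point is a gene, placed by its mean level in the luminal libraries of W10 (x axis) and P3.5 (y axis), both as log2 of the mean CPM + 1 with n = 3. Open circles are the 311 called genes, filled colours mark gene lists, the solid line is equality and the dotted lines are 2-fold. Mitosis and DNA replication genes lie above the upper dotted line for the most part, respiratory chain genes between the solid and upper dotted lines or above, and most heat shock and immediate early genes below the solid line.

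Mitosis genes made up the strongest part of the rise. *Ube2c*, the ubiquitin-conjugating enzyme of the anaphase-promoting complex, was at 5.44, 7.43 and 7.59 CPM in the W10 libraries and at 119, 81.4 and 176 CPM at P3.5. Every P3.5 library was thus more than 10 times above every W10 library, and the log2 fold change was 3.96 (SE 0.76, adjusted p = 0.0017). *Cdk1*, the kinase that drives entry into mitosis, stood at 0.504, 1.54 and 0.747 CPM and then at 29.1, 16.2 and 27.5 CPM, which moved it from close to the detection limit to a moderate level (log2 fold change 3.70, SE 0.70, adjusted p = 0.0015). *Top2a*, the topoisomerase that untangles replicated chromosomes, went from 45.8, 21.8 and 12.8 CPM to 397, 207 and 334 CPM (log2 fold change 3.63, SE 0.74, adjusted p = 0.0027). For *Mki67*, the proliferation marker Ki67, the values were 84.1, 32.8 and 22.3 CPM at W10 and 541, 167 and 627 CPM at P3.5. Here P3.5 replicate 4 was the lowest of its group and W10 replicate 3 the highest of its own, but the groups did not meet (log2 fold change 3.25, SE 0.78, adjusted p = 0.0094). The table's exons of *Ube2c* overlap those of another gene over 22.8% of their length.

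Of the 65 mitosis genes in the table, 32 (49.2%) rose, none fell and 33 were not called. Over all genes, 1.4% were called higher and 0.422% lower. The median log2 fold change was 2.72 with a range of 0.48 to 3.96, and all 65 members were positive. In all 65 the 3 P3.5 libraries lay above the 3 W10 libraries, a pattern shown by 14.4% of all genes. Besides the genes above, the 15 called genes with the largest rises included the cyclin *Ccna2* (log2 fold change 3.56), the checkpoint kinase *Bub1* (3.38), the spindle factors *Tpx2* (3.34) and *Hmmr* (3.72), the chromokinesin *Kif4* (3.36), the kinetochore gene *Kntc1* (3.56), the microtubule-destabilising *Stmn1* (3.41), the survivin gene *Birc5* (3.34), the mitotic kinase *Pbk* (3.74) and *Shcbp1* and *Iqgap3* (3.39 and 3.58), which take part in cytokinesis. *Stmn1* had the smallest error of these, at 9.17, 4.97 and 2.99 CPM in W10 and 78.4, 40.9 and 86.3 CPM in P3.5 (SE 0.45, adjusted p = 1.6e-05). The condensin subunit *Smc2* (10.5, 12.0 and 12.9 CPM against 101, 53.2 and 101 CPM, log2 fold change 2.70) and the cytokinesis regulator *Ect2* (2.02, 5.25 and 3.36 CPM against 46.7, 28.1 and 38.0 CPM, log2 fold change 3.12) had among the smallest adjusted p of the list. Members with the smallest changes were *Cks2* (0.48), *Aurka* (1.12) and *Pttg1* (1.19), none of them called. The number of called members depended on single libraries: it was 1 without P3.5 replicate 2, 2 without P3.5 replicate 6, 6 without W10 replicate 6, 11 without W10 replicate 5, 23 without W10 replicate 3 and 31 without P3.5 replicate 4, while the median of the list stayed between 2.52 and 3.00. It also depended on the test, with 15 called in edgeR, 49 in DESeq2, both on recovered reads, and none in limma on the 6 compared libraries alone.

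**Figure D2:**
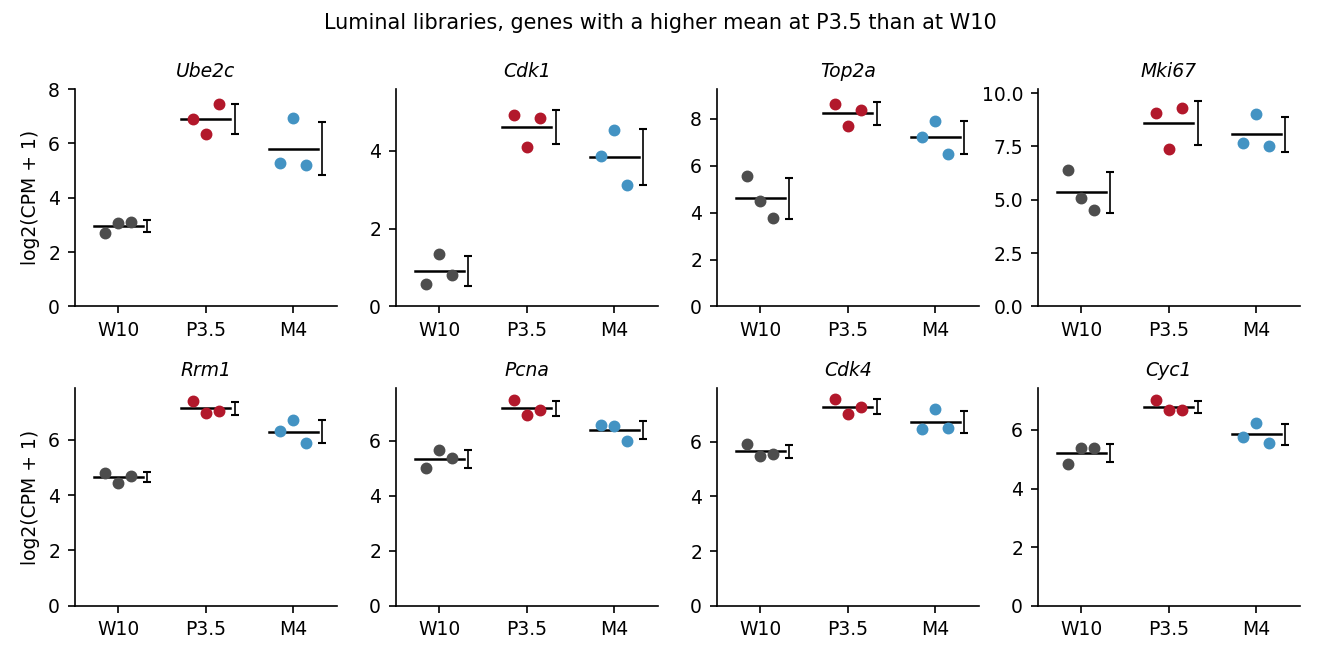
Each panel shows 1 gene as log2(CPM + 1) on the y axis, with 1 point for each luminal library of W10, P3.5 and M4 on the x axis. Horizontal lines are means, error bars are SD with n = 3, and the y axes differ between panels. For all 8 genes both the P3.5 and the M4 points lie above all W10 points.

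Genes of mitosis are known to share a promoter arrangement, a cell cycle homology region (CHR, the letters TTTGAA) near the start site with CCAAT boxes upstream of it. The 150 bases before the annotated start of 4 genes of this group are shown because the members of the list moved together. They were taken from RefSeq promoters of build GRCm38.p6, at chr2:164769779-164769928 (plus strand) for *Ube2c*, chr10:69352913-69353062 (minus) for *Cdk1*, chr11:99024190-99024339 (minus) for *Top2a* and chr7:135716380-135716529 (minus) for *Mki67*, and read 5′ to 3′ with the start site right after the last base. Capitals mark TTTGAA and CCAAT on either strand (TTCAAA and ATTGG on the other).
Ube2c: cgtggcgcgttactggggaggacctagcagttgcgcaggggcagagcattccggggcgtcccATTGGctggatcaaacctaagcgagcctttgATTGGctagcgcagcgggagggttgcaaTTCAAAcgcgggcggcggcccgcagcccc
Cdk1: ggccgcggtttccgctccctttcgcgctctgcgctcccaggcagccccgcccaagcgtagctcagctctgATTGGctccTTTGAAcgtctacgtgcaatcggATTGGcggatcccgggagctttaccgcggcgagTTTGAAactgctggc
Top2a: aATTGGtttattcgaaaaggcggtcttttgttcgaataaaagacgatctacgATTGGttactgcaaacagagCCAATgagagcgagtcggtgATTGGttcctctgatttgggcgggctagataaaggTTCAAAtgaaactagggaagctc
Mki67: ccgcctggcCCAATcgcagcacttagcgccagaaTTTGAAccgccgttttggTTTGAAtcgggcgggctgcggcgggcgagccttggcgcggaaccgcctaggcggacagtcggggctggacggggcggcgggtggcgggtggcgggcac
*Ube2c* had its CHR letters beginning at base -29 and CCAAT boxes at -88 and -57, and *Cdk1* had CHR letters at -71 and -15 with CCAAT boxes at -80 and -48, all counted back from the start site. *Top2a* held 4 CCAAT boxes between -149 and -58 and CHR letters at -23. In *Mki67* the CCAAT box lay at -141 and the CHR letters at -116 and -98. Over 250 bases before the start, 37.9% of the 29 promoters found for 27 of the 32 called mitosis genes held CHR letters, 69.0% held CCAAT and 31.0% held both, against 15.99%, 33.9% and 5.55% of all 32851 promoters and 11.0%, 34.3% and 3.95% of the 14951 promoters matched to genes of the data. For the DNA replication genes called higher (19 promoters for 15 of 17 genes) CHR letters occurred in 10.5% and CCAAT in 63.2%. An E2F site (TTTCCCGC or TTTGGCGC, either strand) stood in 15.8% of the replication and 10.3% of the mitosis promoters, against 1.30% of all promoters and 2.13% of those matched to genes of the data. Each motif was counted on its own, whether or not it overlapped another. These are counts of letters and not of bound factors.

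DNA replication genes rose as well, by a smaller median. *Rrm1*, the large subunit of ribonucleotide reductase that supplies deoxynucleotides, stood at 26.7, 20.7 and 25.0 CPM in W10 and at 169, 124 and 132 CPM in P3.5. Both groups were tight, and the change was among the most precise of the list (log2 fold change 2.50, SE 0.35, adjusted p = 4.0e-05). Its small subunit *Rrm2* stood at 3.33, 2.31 and 1.49 CPM and at 53.7, 27.9 and 39.4 CPM (log2 fold change 3.60). For *Pcna*, the sliding clamp of the polymerases, the libraries read 31.2, 49.7 and 40.3 CPM at W10 and 178, 121 and 139 CPM at P3.5 (log2 fold change 1.83, SE 0.27, adjusted p = 9.5e-05). *Lig1*, which seals Okazaki fragments, was the most abundant member at P3.5, at 192, 127 and 180 CPM, against 32.1, 24.2 and 22.8 CPM at W10 (log2 fold change 2.60).

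Of 46 replication genes measured, 17 (37.0%) rose and none fell, against 1.4% of all genes called higher and 0.422% called lower. The median log2 fold change was 1.83. In 39 of the 46 all P3.5 libraries lay above all W10 libraries, a pattern shown by 14.4% of all genes. The helicase subunits *Mcm2*, *Mcm3*, *Mcm6* and *Mcm7* were called (2.61, 2.88, 2.45 and 2.30), while *Mcm4* and *Mcm5* were not (1.25 and 2.60, adjusted p = 0.022 and 0.041). *Tyms*, *Dut*, *Prim1*, *Pola1* and *Chaf1b*, which make thymidylate, remove dUTP, prime and extend DNA and load histones, were called with changes between 2.03 and 2.76. *Rfc5*, a clamp loader subunit, was the only member with a negative value (-0.35, not called). Without 1 library the called count ranged from 3 (P3.5 replicate 2) to 13 (P3.5 replicate 4), with medians of 1.66 to 2.00.

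Upstream of replication, the list of 28 G1 regulators and cell cycle inhibitors moved in both directions. Of its members 3 were called higher and 2 lower, against 1.4% and 0.422% of all genes. *Cdk4*, the G1 kinase, rose from 59.2, 43.2 and 46.1 CPM to 186, 129 and 155 CPM (log2 fold change 1.64, SE 0.31, adjusted p = 0.0013). The atypical E2F repressors *E2f7* and *E2f8* rose too (2.82 and 3.03). *Btg2*, an antiproliferative gene, fell from 936, 341 and 471 CPM to 122, 114 and 150 CPM (log2 fold change -2.05, SE 0.40, adjusted p = 0.0019), with W10 replicate 3 far above the rest of its group. Without that library it was not called (-1.64, adjusted p = 0.021), nor without P3.5 replicate 2 (-2.02, adjusted p = 0.018). The calls of *E2f7* and *E2f8* ended without W10 replicate 3 (adjusted p = 0.020 and 0.019) and in most other omissions of 1 library, and in edgeR. *Trp53inp1*, a stress-induced gene under p53 control, fell from 451, 862 and 1290 CPM to 145, 333 and 195 CPM (log2 fold change -1.91), a call that was lost without W10 replicate 5 or 6 or P3.5 replicate 2 or 6 (adjusted p between 0.013 and 0.038). Without P3.5 replicate 2 no member of the list was called, *Cdk4* included (1.51, adjusted p = 0.019). *Ccnd1*, cyclin D1, was at 471, 387 and 439 CPM in W10 and at 663, 537 and 580 CPM in P3.5. Its groups did not overlap but its log2 fold change of 0.45 was not called (adjusted p = 0.73). Exons of *Cdk4* and *Ccnd1* overlap other genes over 19.7% and 23.4% of their length.

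Respiratory chain genes formed the third group that rose. *Atp5a1*, a subunit of ATP synthase, was at 239, 269 and 288 CPM in the W10 libraries and at 715, 678 and 619 CPM in those of P3.5. Neither group spread by more than a small part of the gap between them (log2 fold change 1.34, SE 0.19, adjusted p = 3.7e-05). *Cyc1*, cytochrome c1 of complex III, stood at 27.8, 41.1 and 40.7 CPM and then at 128, 100.4 and 102 CPM (log2 fold change 1.58), and *Ndufb5* of complex I at 6.05, 12.0 and 12.9 CPM and then at 39.9, 36.4 and 43.1 CPM (log2 fold change 1.91). Of the 46 genes 13 rose, among them *Cox4i1* of complex IV (1.60) and the complex I genes *Ndufa1*, *Ndufb9* and *Ndufv1* (1.89, 1.51 and 1.43). None fell, the median was 0.80, and 45 of 46 were positive, against 7607 of all 17078 genes. The 13 called members made up 28.3% of the list, against 1.4% of all genes called higher. W10 replicate 3 was the lowest library on this list, with summed levels of 2315, 3795 and 3734 CPM for the W10 replicates and 6344, 6044 and 5774 CPM for P3.5. Without it 8 members were called with a median of 0.64, and without P3.5 replicate 2, which had the strongest effect, 4 were called (median 0.77).

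Most genes of ribosome biogenesis had positive changes, and 4 of them were called. *Gar1*, a component of the box H/ACA particles that guide pseudouridylation, stood at 8.06, 19.8 and 11.8 CPM in W10 and at 62.3, 37.3 and 60.4 CPM in P3.5 (log2 fold change 1.98, SE 0.34, adjusted p = 4.7e-04). Its partners *Nhp2* and *Dkc1* rose by 1.67 and 1.62, and *Npm1*, nucleophosmin, rose from 384, 390 and 483 CPM to 929, 792 and 989 CPM (log2 fold change 1.11). Of 42 genes measured these 4 (9.52%) rose and none fell, against 1.4% of all genes called higher and 0.422% called lower. The median was 0.55, and 39 of the 42 were positive. In 20 all P3.5 libraries lay above all W10 libraries, a pattern shown by 14.4% of all genes, and in 1 all lay below. *Myc* was at a mean of 273 CPM in W10 and 161 CPM in P3.5 and was not called (log2 fold change -0.72, adjusted p = 0.17). Without W10 replicate 5 a single member was called, as without P3.5 replicate 2 or 6.

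The largest falls were spread over genes of different roles. *Dmbt1*, a secreted scavenger receptor glycoprotein of mucosal surfaces, was at 17.9, 79.7 and 117 CPM in W10 and at 0.406, 2.72 and 0 CPM in P3.5. W10 replicate 3 was the lowest of its group and still above all P3.5 libraries, 1 of which held no read (log2 fold change -5.02, SE 1.10, adjusted p = 0.0047). The synaptic adhesion gene *Nrxn3* fell from 61.4, 55.1 and 86.1 CPM to 1.79, 5.64 and 1.91 CPM, with the smallest relative error among the large falls (log2 fold change -4.16, SE 0.62, adjusted p = 9.5e-05). *Ido1*, the enzyme that opens the tryptophan ring, was at 10.7, 19.6 and 47.5 CPM and then at 0.0813, 7.38 and 0.191 CPM. P3.5 replicate 4 kept a level near that of the lowest W10 library, and the other P3.5 libraries were at or below the detection limit (log2 fold change -3.36, SE 0.76, adjusted p = 0.0057). The same replicate 4 was the highest of the P3.5 group for *Dmbt1*, *Nrxn3*, *Cyp3a57*, *Dscam* and *Hal*.

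Other large falls were those of the tyrosine phosphatase gene *Ptpn5* (log2 fold change -3.19), the lysoplasmalogenase gene *Tmem86a* (-3.13), the cytochrome P450 *Cyp3a57* (-2.89), the adhesion molecule *Dscam* (-2.56), synapsin 2 (*Syn2*, -2.49), the kinesin *Kif5c* (-2.45), *Lrrc36* (-2.42), the sodium, potassium and calcium exchanger *Slc24a3* (-2.32) and histidine ammonia-lyase (*Hal*, -2.24). *Slc12a2*, the basolateral sodium-potassium-chloride cotransporter, was the most abundant of them, at 670, 1648 and 1831 CPM in W10 and 251, 484 and 229 CPM in P3.5 (log2 fold change -2.06, SE 0.49, adjusted p = 0.0092). The P3.5 values of *Ptpn5* (0.163, 0.279 and 0.445 CPM) stood against a level of 3 reads of 0.244, 0.209 and 0.191 CPM.

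**Figure D3:**
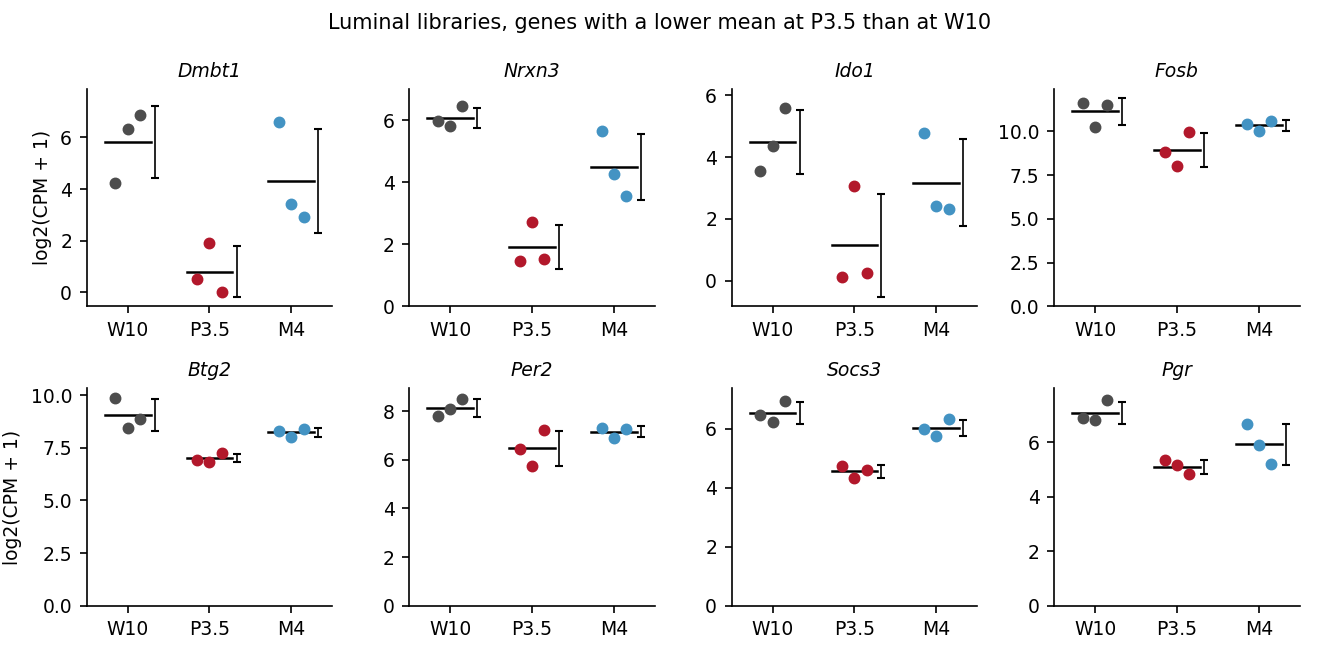
Each panel shows 1 gene as log2(CPM + 1) on the y axis, with 1 point for each luminal library of W10, P3.5 and M4 on the x axis. Horizontal lines are means, error bars are SD with n = 3, and the y axes differ between panels. In all 8 panels the P3.5 points lie below the W10 points, though Pgr was not called, and in the Dmbt1 and Ido1 panels 1 M4 point lies in the W10 range.

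Of the immediate early genes, which respond within minutes to growth factors and also to tissue dissociation, 3 fell. *Fosb* fell from 3212, 1208 and 2969 CPM to 455, 259 and 981 CPM (log2 fold change -2.21, SE 0.46, adjusted p = 0.0029). *Jund* fell from 1565, 290.4 and 508 CPM to 149, 137 and 129 CPM (-2.14, SE 0.35, adjusted p = 3.1e-04) and *Jun* from 1389, 584 and 666 CPM to 243, 229 and 314 CPM (-1.65, SE 0.33, adjusted p = 0.0026). W10 replicate 3 was the highest library for all 3 genes. These AP-1 genes were the only called members of the list of 24 heat shock and immediate early genes, with a median of -1.05 and 22 negative values. They made up 12.5% of the list, against 0.422% of all genes called lower. Over all genes, 9467 of 17078 changes were negative. *Fos*, *Egr1*, *Atf3* and *Zfp36* had log2 fold changes between -1.57 and -1.83 and were not called in limma. All 4 were called lower in DESeq2 (adjusted p between 4.6e-04 and 0.0084), which called 9 members of the list, against 4 in edgeR. The summed level of the list was 26861, 8875 and 14426 CPM in W10 replicates 3, 5 and 6 and 5946, 5328 and 7554 CPM in P3.5. Without W10 replicate 3 a single member was called and the median was -0.83, a single member was also called without P3.5 replicate 2 or 4, and without W10 replicate 5 there were 8 called members (median -1.39). The sources give no measure of dissociation for single sorts, and its part in the result was not tested. Reads of *Jun* cannot be told apart from those of its antisense neighbour, since the strand used in counting is not given in the sources used here.

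All 19 listed clock genes had lower fitted levels at P3.5, although a single member passed the test. Over all genes, 9467 of 17078 had negative changes and 0.422% were called lower. *Per2*, a repressor of the circadian clock, fell from 221, 272 and 362 CPM to 86.5, 52.6 and 148 CPM (log2 fold change -1.66, SE 0.37, adjusted p = 0.0048). The median of the list was -0.81. In 13 of the 19 genes all P3.5 libraries lay below all W10 libraries, a pattern shown by 15.6% of all genes. Among them *Nr1d1*, *Per3* and *Bhlhe40* had log2 fold changes of -1.22, -1.27 and -0.88. The hour at which glands were collected is not given in the sources used here. Leaving out W10 replicate 5 or 6 or P3.5 replicate 2 or 4 ended the call of *Per2*. In edgeR it was not called either (-1.58, adjusted p = 0.012).

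Single members were called lower on 3 further lists, of 16, 23 and 24 genes. Over all genes, 0.422% were called lower. *Socs3*, the feedback inhibitor of cytokine receptor signalling, was the only gene called in limma among 16 of the prolactin, JAK2 and STAT5 axis, from 87.5, 73.1 and 121 CPM to 25.7, 19.0 and 23.1 CPM (log2 fold change -1.99, SE 0.40, adjusted p = 0.0026). *Cebpb*, a transcription factor of the same list, was not called (-1.14, adjusted p = 0.044), but was called lower in edgeR (-1.65, adjusted p = 0.0076), in DESeq2 (-1.70, adjusted p = 4.5e-04) and without W10 replicate 5 (-1.77, adjusted p = 0.0016). The transcription factors *Stat5a* and *Stat5b* had changes of -0.14 and -0.11, and *Elf5* stood at 179, 139 and 297 CPM against 127, 116 and 172 CPM (-0.51, not called). *Numb*, an inhibitor of Notch, fell from 85.9, 157 and 203 CPM to 44.9, 61.0 and 49.4 CPM (-1.43, adjusted p = 0.0080), alone among 23 Notch pathway genes, and kept its call only in the omission of W10 replicate 3 among the 6 omissions of 1 library. *Lpin1*, the phosphatidate phosphatase of triglyceride synthesis, fell from 833, 202 and 521 CPM to 134, 87.9 and 160 CPM (-1.84, adjusted p = 0.0089), alone among 24 genes of fatty acid and triglyceride synthesis. This call was lost without W10 replicate 3, the highest library (-1.39, adjusted p = 0.089), and in every other omission of 1 library except that of W10 replicate 5. The call of *Socs3* held without W10 replicate 3 or 5 and was lost in the other 4 omissions and on the 24 luminal libraries alone. *Fasn* and *Scd1* of the same list changed by 0.10 and 0.04.

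Hormone receptors and the paracrine signals downstream of them did not pass the test. *Pgr*, the progesterone receptor, stood at 118, 112 and 187 CPM in W10 and at 39.4, 34.9 and 27.5 CPM in P3.5. The groups did not overlap, and the log2 fold change of -1.98 had an SE of 0.69, against a median SE of 0.35 over all genes, and an adjusted p of 0.085. *Prlr*, the prolactin receptor, read 1572, 3455 and 2685 CPM and then 709.5, 872 and 689 CPM (-1.70, SE 0.80, adjusted p = 0.24), and the oestrogen receptor *Esr1* read 115, 159 and 127 CPM and then 82.3, 103 and 47.9 CPM (-0.83, SE 0.36, adjusted p = 0.18). None of these receptors was higher in any P3.5 library than in the lowest W10 library.

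The secreted signals had no common direction. *Tnfsf11*, which encodes RANKL, was at 10.4, 1.75 and 0.498 CPM in W10 and at 25.3, 10.2 and 21.2 CPM in P3.5. W10 replicate 3 overlapped the P3.5 range, and the log2 fold change of 2.37 (SE 0.69) had an adjusted p of 0.033. *Calca*, calcitonin, was at 226, 0.771 and 0 CPM in W10 and at 190, 72.2 and 141 CPM in P3.5, so that W10 replicate 3 alone reached the P3.5 level (log2 fold change 4.09, SE 1.42, adjusted p = 0.083). *Wnt4* was at 160, 104 and 62.4 CPM against 130, 105 and 46.4 CPM, and *Areg*, amphiregulin, at 219, 369 and 149 CPM against 356, 336 and 233 CPM. Both of these overlapped throughout. None of the 21 listed hormone receptors and paracrine signals was called, with a median of -0.07, and none of 20 markers of hormone-sensing luminal cells, with a median of -0.74. Without W10 replicate 3, *Tnfsf11* (3.20, adjusted p = 0.0093), which is on both lists, and *Calca* (6.56, adjusted p = 0.0043), which is on the first, were called higher. In DESeq2 *Fgfr2* of the first list was called lower (-1.60, adjusted p = 0.0044). *Wnt5a* (-2.20, adjusted p = 0.013) and *Axin2* (1.77, adjusted p = 0.029) were the closest to the threshold of the 33 Wnt genes, and none of those was called in the main model. *Wnt5a* was called lower in DESeq2 (adjusted p = 0.0012).

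Milk genes were already abundant in virgin luminal cells and varied widely between sorts. *Csn2*, beta-casein, stood at 13376, 1925 and 4024 CPM in W10 and at 3206, 5791 and 4071 CPM in P3.5. *Csn3*, kappa-casein, stood at 1221, 3600 and 5168 CPM and at 1529, 3900 and 1976 CPM. Both groups of either gene overlapped (log2 fold changes of -0.15 and -0.32, SE 0.84 and 0.77). *Lalba*, the alpha-lactalbumin subunit of lactose synthase, was at 169, 34.9 and 68.6 CPM and then at 1.46, 19.7 and 5.34 CPM. Its groups did not overlap, and its log2 fold change of -3.45 (SE 0.85) had an adjusted p of 0.011, just outside the threshold. With the sort as a block it was called lower (adjusted p = 0.0077), as it was in DESeq2 (adjusted p = 0.0053) and without P3.5 replicate 4 (adjusted p = 0.0052). In the main model, without the block, none of 30 milk protein and secretion genes was called (median -0.28). Nor was any of 24 milk defence and acute phase genes (median -0.58) or 20 progenitor and alveolar precursor markers (median -0.63), *Kit* among the last (259, 303 and 727 CPM against 306, 244 and 292 CPM). *Btn1a1* of the milk list was called lower on the 24 luminal libraries (-2.75, adjusted p = 0.0056). DESeq2 called *Cxcl2* and *Chil1* of the milk defence list lower (-3.06 and -2.26, adjusted p = 0.0017 and 0.0049), with a list median of -1.14. The main model also called no member among 16 EGF family ligands and ERBB receptors, 24 cholesterol synthesis genes or 28 genes of endoplasmic reticulum folding. Nor was any called among 23 of amino acid and one-carbon metabolism, 29 interferon response genes, 17 tight junction genes or 24 of glycolysis and hypoxia. The medians of these further lists lay between -0.32 and 0.24. With the sort as a block *Psat1* of serine synthesis, on the amino acid list, was called higher (2.12, adjusted p = 0.0097, against 0.013 without the block). On the same list *Slc3a2* was called lower without P3.5 replicate 4 (-1.35, adjusted p = 0.0079). *Errfi1* of the EGF list was called lower in DESeq2 (-1.02, adjusted p = 0.0093). A gene that missed the threshold is not thereby shown to be alike at both time points, the median SE over all genes being 0.35.

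Markers of other cells were low in the luminal libraries. The 15 basal markers summed to 423, 351 and 316 CPM in W10 and 203, 179 and 297 CPM in P3.5, against 14385 to 33782 CPM in the basal libraries of both time points. Their most abundant gene was *Lifr*, the LIF receptor, in all luminal libraries of W10 and in P3.5 replicates 2 and 4, and *Oxtr* in P3.5 replicate 6. *Lifr* was the only called member, falling from 136, 145 and 143 CPM to 45.4, 49.0 and 45.3 CPM (log2 fold change -1.58, adjusted p = 0.0079), a call that was lost whichever of the 6 libraries was left out (adjusted p between 0.019 and 0.045) and in edgeR (adjusted p = 0.012). Over all genes, 0.422% were called lower. None of the 15 basal markers was at 0 in any of the 6 libraries.

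For stromal and blood-borne cells the sums were smaller still or rested on a single gene. The 11 fibroblast markers summed to 308, 461 and 184 CPM in W10 and 88.8, 196 and 144 CPM in P3.5, with *Dcn* the most abundant apart from *Col6a3* in W10 replicate 3. Endothelial markers (11 genes, most often led by *Eng*) summed to 33.3, 61.1 and 27.5 CPM and 11.9, 12.0 and 20.7 CPM, and immune markers (11 genes, led by *Cd68*) to 14.9, 19.1 and 11.1 CPM and 13.1, 14.1 and 12.5 CPM. *Ptprc*, the pan-leukocyte gene, had no read in 2 W10 libraries and 0.140 CPM in the other, and 0.732, 0.139 and 0.445 CPM at P3.5. Pericyte, adipocyte and Schwann cell lists were led by *Notch3*, *Pnpla2* and *Sox10* or *Mbp*, which are not particular to those cells, and the 2 erythroid genes found summed to at most 5.28 CPM. None of these lists had a called member. The part of admixed cells in the called changes was not tested.

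Virgin mice of 4 months (M4, lane 7, amplification batches 1 to 3) gave a different contrast with the same P3.5 libraries. Against M4, 5 genes (0.0293%) were higher and 14 (0.082%) lower at P3.5, and 1869 genes had an unadjusted p under 0.05, against 3241 for the comparison with W10. M4 and W10 luminal cells, both from virgin mice, also differed, with 16 genes (0.0937%) higher and 150 (0.878%) lower in W10. For the mitosis list the median log2 fold change was 2.72 for P3.5 against W10, 0.71 for P3.5 against M4 and -1.99 for W10 against M4, with 32, 0 and 3 called members. For DNA replication the medians were 1.83, 0.66 and -1.07. The respiratory chain list stood at 0.80, -0.09 and -0.85, with 13 members called higher in P3.5 than in W10, none called between P3.5 and M4 and 10 called lower in W10 than in M4. In the same order, the heat shock and immediate early list had medians of -1.05, -0.59 and 0.75. The clock list had -0.81, -0.46 and 0.42, and the milk protein and secretion list -0.28, -1.50 and -0.91. These comparisons share libraries and their values are only set side by side.

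Gene by gene, M4 spread widely. *Mki67* was at 204, 514 and 183 CPM and *Ube2c* at 37.8, 121 and 35.5 CPM in M4 replicates 1, 2 and 6, all inside the P3.5 range for *Mki67* and only replicate 2 inside it for *Ube2c*. *Dmbt1* was at 97.3, 9.63 and 6.55 CPM and *Pgr* at 101, 59.0 and 35.7 CPM, with replicate 1 inside the W10 range for *Dmbt1* and just below it for *Pgr*. All 5 genes called higher in P3.5 than in M4 are named, after their values were seen. *Svs2*, a gene best known from seminal vesicle secretion, was at 0, 0.932 and 0.468 CPM in M4, at 0.806, 0 and 0 CPM in W10 and at 8.94, 3.90 and 3.12 CPM in P3.5 (log2 fold change 2.05 against M4, adjusted p = 9.7e-05, and 2.26 against W10, adjusted p = 5.9e-06). *Wdr46* was at 20.7, 35.4 and 25.0 CPM in M4, 31.2, 28.7 and 28.9 CPM in W10 and 82.7, 59.8 and 82.96 CPM in P3.5 (1.46 and 1.30, called in both). The other three were *Gm12957*, *Gm24270* and *Gm25911*, predicted genes without a described role. Among those called lower, the lysosomal lipase *Lipa* was at 593, 620 and 711 CPM in M4, 447, 448 and 747 CPM in W10 and 126, 236 and 144 CPM in P3.5 (-1.97 against M4 and -1.70 against W10, called in both), and *Lipm*, a lipase of the same family, at 19.1, 18.4 and 16.8 CPM, 5.04, 4.41 and 2.36 CPM and 0.732, 0.279 and 0.445 CPM (-3.70 and -1.70, called in both). The other genes called lower in P3.5 than in M4 were not called against W10.

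**Figure D4:**
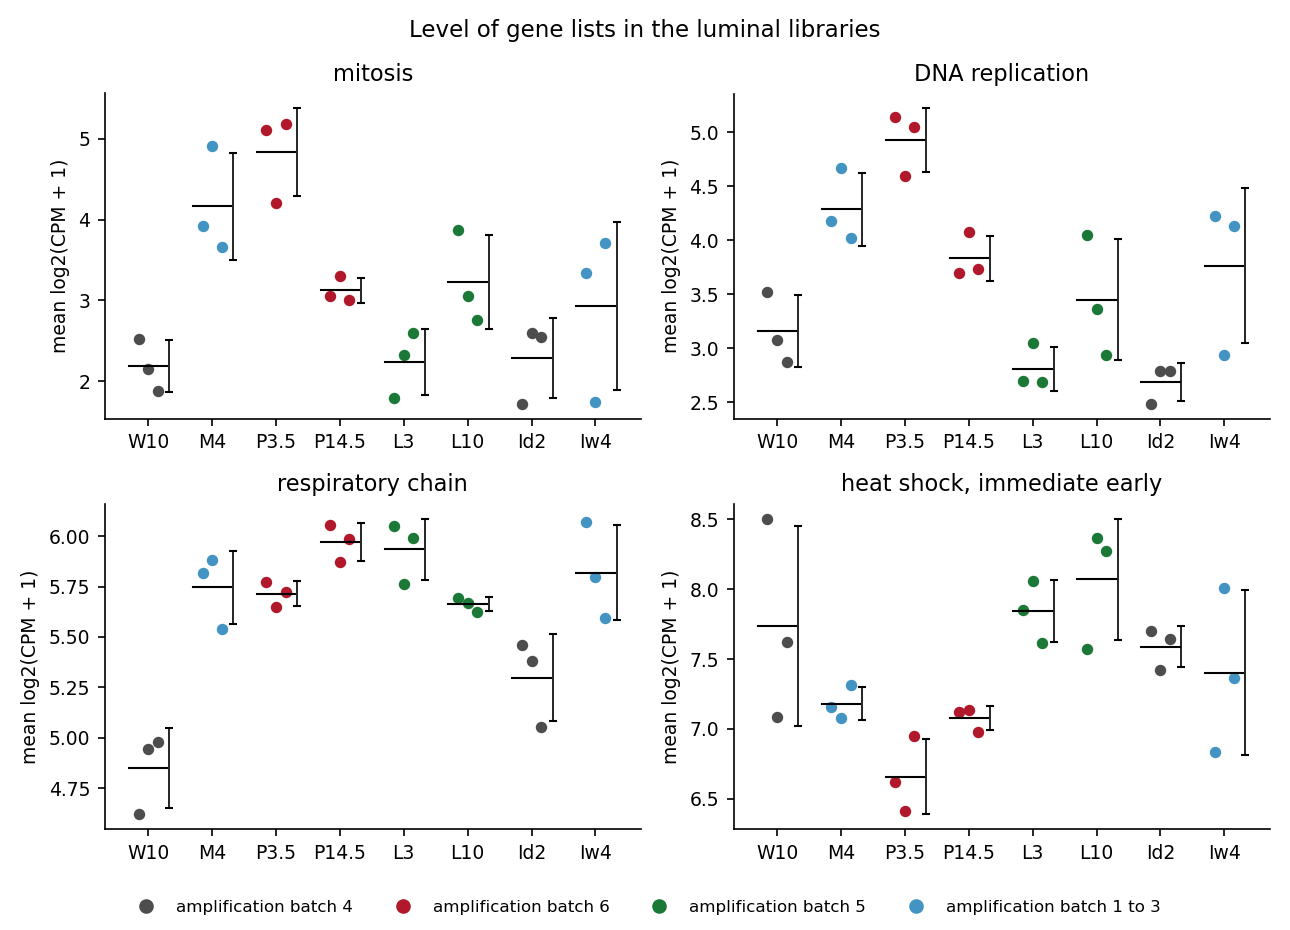
Each panel gives the mean log2(CPM + 1) of a gene list (y axis) in every luminal library of the 8 time points (x axis), coloured by amplification batch, with the mean as a line and the SD as an error bar (n = 3). Mitosis and DNA replication are highest at P3.5, the respiratory chain list is lowest at W10 and next lowest at Id2, which share a batch, and the heat shock and immediate early list is lowest at P3.5.

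Over the 8 luminal time points (also lactation days 3 and 10, L3 and L10, involution day 2, Id2, and involution week 4, Iw4) the mean level of the mitosis list was highest at P3.5, at 4.83 ± 0.54 (mean log2(CPM + 1), SD, n = 3), followed by M4 at 4.16 ± 0.66. Their ranges overlapped. It was lowest at W10 (2.18 ± 0.32), with L3 and Id2 close to it (2.23 ± 0.41 and 2.29 ± 0.49). The respiratory chain list was at 4.85 ± 0.20 in W10 and at 5.30 ± 0.22 in Id2, the other time point of amplification batch 4, and between 5.66 and 5.97 at all other time points, 5.71 ± 0.06 at P3.5 among them. The respiratory chain list was thus lowest at W10 and Id2, the time points of amplification batch 4. The mitosis list was also low at L3, which was amplified in batch 5. The part of the batch in these levels was not tested. From P3.5 to P14.5, which share amplification batch 6 but not the lane, 139 genes (0.814%) were higher and 121 (0.709%) lower. The mitosis list had a median log2 fold change of -1.74 there with no called member, and the DNA replication list one of -1.16 with 3 called, *Rrm1* and *Lig1* among them (-1.63 and -1.74).

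Basal cells of the same sorts, with the same lanes and amplification batches, had 848 genes (4.97%) called higher and 306 (1.79%) called lower at P3.5 than at W10. All 65 mitosis genes were called higher there, with a median of 3.58. The test of the difference between the luminal and the basal change called no gene with a higher (0.0%) and 4 genes (0.0234%) with a lower luminal change. In this limma test 743 genes, 4.35% of those tested, had an unadjusted p under 0.05. On the lists, no member was called: the median difference was -0.87 for mitosis, -0.24 for DNA replication and -0.47 for the respiratory chain. *Ube2c* changed by 3.96 in luminal and 5.06 in basal cells and *Rrm2* by 3.60 and 3.65, and neither difference passed the test (adjusted p = 1.0 for each). With the sort as a block, which takes up what luminal and basal cells of a sort share, 12 genes were called, 4 higher and 8 lower.

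The 4 called genes rose in basal cells and were at or under the level of 3 reads in nearly all luminal libraries. *Glb1l3*, a beta-galactosidase-like gene, averaged 0.246 CPM in W10 and 9.48 CPM in P3.5 basal cells, and its luminal libraries held at most 0.163 CPM (difference -2.99, SE 0.35, adjusted p = 3.7e-06). *Tmem114*, *Krt73* and *Izumo1r* were alike, with P3.5 basal means of 4.01, 4.93 and 3.62 CPM and differences of -1.98, -1.90 and -1.81. The luminal losses of *Dmbt1*, *Nrxn3*, *Ido1*, *Ptpn5* and *Cyp3a57* had the largest negative differences among called luminal genes (-3.15, -2.42, -2.26, -2.71 and -1.96). None passed the test. The basal levels of these genes at W10 were 4.84, 4.37, 1.84, 0.468 and 1.76 CPM on average. In the other direction *Svs2* (2.03, adjusted p = 0.019), *Sfxn2* (1.39), *Nsl1* (0.70), *Lifr* (0.70) and *Smc3* (0.67) led among called luminal genes without the difference being called. With the sort as a block *Svs2* passed the test (adjusted p = 0.0051), and the others with a higher luminal change, *Nrcam*, *Wscd2* and *Thrb*, were genes that fell in basal cells (-2.18, -2.40 and -1.95) and were not called in luminal cells (0.68, -0.13 and 0.31). On the lower side the block added *Kynu*, kynureninase of tryptophan breakdown, which fell in luminal cells (-1.76, adjusted p = 3.9e-06) and changed by -0.17 in basal cells (block-adjusted p of the difference 0.0051). It also added *Lpar3*, *Fzd10* and *Gm15391*, which rose in basal cells (2.52, 1.16 and 2.13). Of these *Smc3*, a cohesin subunit, rose in luminal cells from 116, 103 and 135 CPM to 298, 182 and 259 CPM, while its basal means were 202 and 264 CPM.

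**Figure D5:**
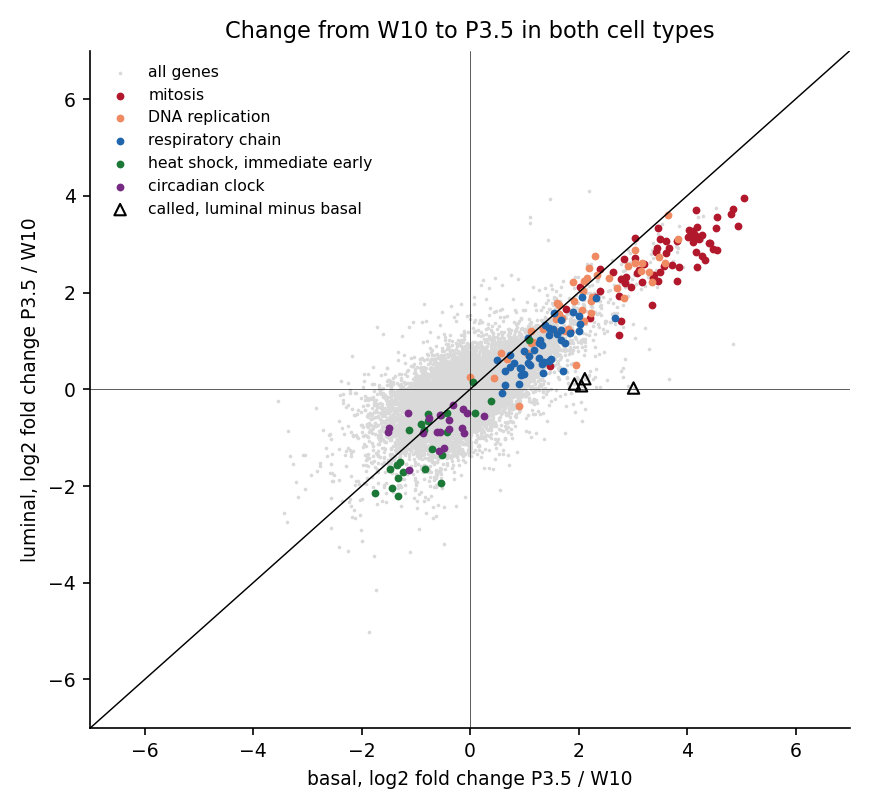
Each point is a gene, with its log2 fold change from W10 to P3.5 in basal cells on the x axis and in luminal cells on the y axis, and the diagonal marks equal change. Filled colours mark gene lists and open triangles the 4 genes called in the main test of the luminal minus basal change. Most mitosis genes lie in the upper right below the diagonal, and the triangles lie at basal changes of about 2 to 3 with luminal changes near 0.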

How the data were processed

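RNA of sorted mouse mammary luminal and basal cells was amplified (Ovation RNA-Seq System V2) and sequenced (Illumina). The authors aligned reads with GSNAP to mouse genome mm9 and counted them per gene with htseq-count. The deposited values are a normalized signal, gene reads divided by an effective library size from edgeR and scaled as CPM, the name used here. The authors removed 1 outlier library, scarce genes, and genes with very many reads and low variability. In every library 100% of values were whole multiples of the value of 1 read within 0.001, so that reads could be recovered.

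Gene symbols were matched for 16897 of 17078 genes. Means of the 16 conditions were fitted to log2(CPM + 1) of all 46 libraries in limma 3.58.1 (R 4.3.3) with a mean-variance trend. Calls required a 2-fold change and a Benjamini-Hochberg FDR under 0.01 over all genes. On recovered reads, edgeR 4.0.16 called 199 and DESeq2 1.42.0 called 559 genes between W10 and P3.5. Tests were tried on simulated data. The gene lists and the genes always named were chosen with earlier results of these data known. Also named were the 15 largest rises and falls among called genes with a mean of at least 5 CPM, non-overlapping groups and a descriptive symbol, the 3 called members with the smallest adjusted p on each list in each direction, and the 5 largest differences from basal cells in each direction; other genes, named for contrast or for their closeness to the threshold, were chosen after their values were seen.

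Luminal and basal libraries of a sort come from the same mice and so pair. Their deviations from the condition means correlated with a median of 0.31 over 22 sorts, positive in 21. Replicate numbers of W10 and P3.5 do not pair. Alternatives covered the pseudocount (0.1 or 5), a filter on low values, rescaling, the sort as a block, the test, the FDR and fold thresholds, the libraries in the fit and leaving out each library. Promoters were read from RefSeq, build GRCm38.p6, by symbol. No coordinates of the mm9 files were used.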

Additional observations from a re-analysis of the deposited data

Results flagged for a closer look

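The change from W10 to P3.5 differed between luminal and basal cells for 4 genes by the interaction test in limma without the sort block, all 4 with a rise in basal cells. The luminal minus basal change on the log2(CPM + 1) scale was -2.99 for *Glb1l3*, -1.98 for *Tmem114*, -1.90 for *Krt73* and -1.81 for *Izumo1r* (adjusted p between 3.7e-06 and 0.0061). *Krt73* was at 0.202, 0.0701 and 0 CPM in W10 and 0.406, 0.279 and 0.127 CPM in P3.5 luminal cells. With so few luminal reads the luminal change is not determined, and with a pseudocount of 0.1 no gene was called. With the sort as a block 12 genes were called, these 4 among them, and not all of the others rose in basal cells: *Kynu* fell and *Svs2* rose in luminal cells, and *Nrcam*, *Wscd2* and *Thrb* fell in basal cells.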

How the results depend on the processing

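Calls between W10 and P3.5 depended on the test and on single libraries, whereas none of the 57 called genes chosen by the naming rule changed direction. Against 311 calls, 763 passed at an FDR of 0.05 (499 higher, 264 lower), 199 in edgeR (145 and 54), 559 in DESeq2 (344 and 215, a larger share of lower genes than the 239 and 72 of limma), and 0 in limma on the 6 compared libraries alone, where 771 genes had an FDR under 0.05 and 4133 an unadjusted p under 0.05. The median of all genes was -0.06 in limma, -0.13 in edgeR and -0.17 in DESeq2. Without 1 luminal library the count was between 38 (P3.5 replicate 2) and 264 (P3.5 replicate 4), with 66 without P3.5 replicate 6 and 169, 163 and 151 without W10 replicates 3, 5 and 6. The other alternatives gave 236 to 348 calls. Of the 57, 22 lost the call in edgeR, 7 in DESeq2, 19 with a pseudocount of 0.1, 44 without P3.5 replicate 2 and 37 without P3.5 replicate 6. The cause was not tested.

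For the difference between luminal and basal changes, 12 genes were called at an FDR of 0.05, against 4 in the main test. With the replicate block on the sort 12 were called as well, and both sets held the 4. With a pseudocount of 5 there were 8 calls and on the 12 libraries of W10 and P3.5 there were 2, each with 1 of the 4. DESeq2 called 2 genes, both with a higher luminal change and neither of them among the 4. No gene was called with a pseudocount of 0.1, a mean of at least 5 CPM or edgeR (unadjusted p under 0.05 for 613, 495 and 802 genes). Without any 1 library the count was 2 to 4. The block changed no call of these 57 and added *Lalba* and *Psat1* among the listed genes outside the mitosis, replication, respiratory chain and ribosome biogenesis lists. It gave 348 calls for P3.5 against W10 and 27 for P3.5 against M4. For the latter the 19 calls became 90 at an FDR of 0.05, 86 in DESeq2, 8 in edgeR, 6 with a pseudocount of 0.1, 11 with a mean of at least 5 CPM, 4 on the 24 luminal libraries, 0 on the 6 compared (3307 unadjusted), and 4 to 16 without any 1 library. Leaving out M4 or basal libraries, and leaving out P3.5 libraries in the comparison with M4, was added after seeing the data.

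Uncalled genes changed sign in log2 fold change when 1 library was left out, with ranges of -0.58 to 0.20 for *Wnt4*, -0.79 to 0.60 for *Csn2*, -0.92 to 0.12 for *Csn3*, -0.020 to 0.25 for *Krt8*, -0.46 to 0.10 for *Cd24a* and -0.38 to 0.20 for *Epcam*. Depth limits genes under 0.373 CPM, which is 3 reads in the shallowest of the 6 libraries.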

Other observations

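In 3 gene families outside the lists, looked at after the values were seen, some members were called higher at P3.5 than at W10 in luminal cells and none was called lower. Of the 8 subunits of the cytosolic chaperonin, which folds actin and tubulin, *Cct3*, *Cct5*, *Cct7*, *Cct8* and *Tcp1* were called higher, with a family median of 1.08 on the log2 scale, against 0.61 for P3.5 against M4 and 1.25 for basal cells. Of 79 ribosomal protein genes 10 were called higher, with a median of 0.81, against 0.07 for P3.5 against M4 and 1.10 for basal cells. These genes have many near-identical pseudogene copies, so that their counts are uncertain. Of 45 histone genes 5 were called higher, *H2afx* and *H2afz* among them. Their median was 0.95, against 0.43 for P3.5 against M4 and 1.65 for basal cells. Over all genes, 1.4% were called higher at P3.5 than at W10 in luminal cells.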
